A study of Mus musculus with 8 samples.

Results

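The 78 genes described here are named as mitochondrial ribosomal protein genes, and all but Mrps36 encode proteins of the mitochondrial ribosome. They are every gene of the deposited table whose symbol begins with Mrpl (49 genes, named for the large subunit) or Mrps (29 genes, named for the small subunit) followed by a digit, pseudogene symbols excluded, out of 16091 genes in all. RNA was sequenced from whole mouse corneas, 4 Opn5-null (genotype label Opn5-/-) and 4 wild-type, each collected 12 hours after the epithelium had been debrided. Opn5 encodes neuropsin, a violet- and ultraviolet-sensitive opsin. All 8 titles carry the word Light, which no label explains, and strain, sex, age and animals per sample were not stated in the labels. Whether samples of a genotype came from separate animals is not said either, and p-values then rest on a spread that may be technical.

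The mitochondrial ribosome translates the small set of messenger RNAs that mitochondrial DNA encodes, all for subunits of the respiratory chain and ATP synthase. Its ribosomal RNAs come from mitochondrial DNA, while every one of its proteins is encoded in the nucleus, made in the cytosol and imported. Many of the proteins have counterparts in bacterial ribosomes and others are found only in mitochondria. Nuclear respiratory factor 1 (NRF1), the ETS-family factor GABP and YY1 are known regulators of nuclear genes for mitochondrial proteins.

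Values are normalised counts, that is, reads per gene divided by 1 size factor per library. Reads per library ranged from 21111715 to 28219234, and the members together took 0.153% to 0.203% of them in Opn5-null and 0.181% to 0.199% in wild-type libraries. None of 9 corneal markers was at 0 in any library. Their summed level ran from 130270 (library D) to 438390 (C) in the Opn5-null group and from 535650 to 694820 in the wild type. The 9 did not all go the same way: 7 were lower in Opn5-null and 2 higher. Those 2 were Lum and Kera, with log2 fold changes of 0.71 and 0.68. The summed level of the leukocyte markers (15 rows for 14 symbols, none at 0) was 185420, 121800, 67052 and 143710 in Opn5-null A to D and 22539, 39025, 23108 and 35319 in wild-type A to D. Of these rows, 14 were higher in Opn5-null and 1, Mmp8, was lower, with a log2 fold change of -0.75. A few genes weigh heavily in the sum: in Opn5-null A, S100a9 gave 69082 and S100a8 30659. Lens markers (10 tested, none at 0) summed to 958 to 1576 in Opn5-null and 1845 to 6439 in wild-type libraries. In such bulk samples, fewer cells of a type and less RNA per cell cannot be told apart, and the part of cell composition in the results below was not tested.

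Messenger RNAs of the mitochondrial ribosome were at close to the same level in both genotypes. Of the 78 members, 7 had risen and 3 had fallen in the absence of Opn5 (limma, adjusted p below 0.05 after Benjamini-Hochberg), so that 12.8% of the members were called. Over all 16085 genes tested, 32.4% were called, 18.8% as higher and 13.5% as lower. The median size of the log2 fold change, without its sign, was 0.10 over the members and 0.32 over all genes. Fold changes here are on the scale of log2(normalised count + 1), Opn5-null minus wild-type, and ran from -0.56 for Mrpl14 to 0.68 for Mrps28. Of the members, 74 lay between -0.5 and 0.5, 94.9% of them against 63.4% of all genes.

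A p that misses the threshold does not show equal levels, so the intervals matter more here. For 66 of the 68 members not called, the 95% confidence interval of the log2 fold change lay within -0.5 to 0.5. The exceptions were Mrps6, with an interval from -0.74 to 0.03, and Mrpl53, with one from -0.88 to 1.01. Mrpl53 was by far the least read member, with 91 reads over the 8 libraries, against 1202 for the next lowest. Counting the called gene Mrpl4 as well, 85.9% of members had such an interval, against 33.0% of all genes tested. The groups of 4 libraries did not overlap for 14 members, 9 higher and 5 lower, a share of 17.9% against 38.4% of all genes tested. Spread within a genotype was also small. The median coefficient of variation over members was 8.07% without Opn5 and 7.17% in wild-type corneas, against 19.4% and 9.79% over all genes.

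**Figure D1:**
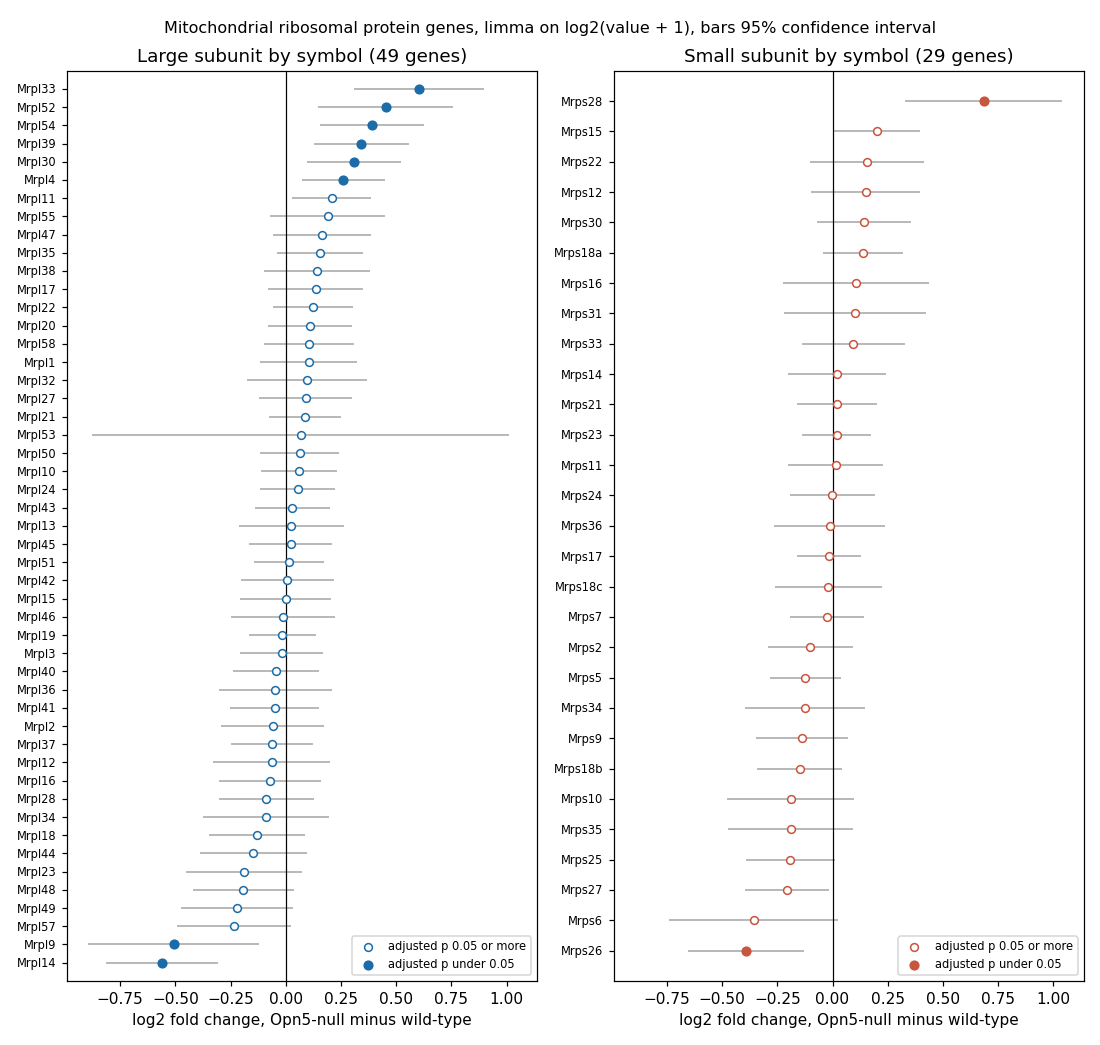
Log2 fold change (x axis, Opn5-null minus wild-type) of each of the 49 large-subunit and 29 small-subunit genes, with 95% confidence intervals from limma. Filled points are the 10 members with adjusted p below 0.05, and most other intervals cross 0 and stay within 0.5 of it.

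The balance of higher and lower calls depended on how the libraries were scaled, while none of the 10 called members changed sign in any of 17 alternatives. Quantile normalization and upper-quartile scaling lowered the median over all genes, on the log2 scale, from -0.02 to -0.13. With them 3 members were higher and 6 lower, and 2 higher and 7 lower, so that the share of member calls that were higher was 33.3% and 22.2%, against 70.0% with the deposited scaling. The share of members called was 11.5% under both, against 39.0% and 38.5% of all genes. By edgeR on recovered reads 7 members were higher and 2 lower, where 31.7% of all genes were called. In the authors' deposited table, 8 members were higher and 3 lower at an adjusted p below 0.05, where 38.8% of all genes with a p-value were.

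Calls of 3 members held under every alternative tried: Mrpl14, Mrpl33 and Mrps28. Mrpl14 encodes a protein of the subunit interface with a bacterial counterpart. It measured 272, 252, 283 and 223 normalised counts in Opn5-null A to D and 414, 394, 335 and 379 in wild-type A to D. Every Opn5-null library was below every wild-type library. The mean fell from 381 ± 33.8 to 258 ± 26.4 (SD, n = 4), which is -0.56 ± 0.11 on the log2 scale (SE, limma adjusted p = 0.00611). Mrpl14 (ENSMUSG00000023939) lies on chromosome 17, positions 45686322 to 45698495, plus strand, of GRCm38 in GENCODE M21. Its exons share 106 bases with exons of Tmem63b on the opposite strand. Tmem63b itself was lower, by -0.67 ± 0.13 on the log2 scale (SE, adjusted p = 0.00482 by limma). No source used here gives the strand setting of the counting, so reads of the overlap could count for either gene.

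Mrpl33, for a small large-subunit protein with a bacterial counterpart, was the most abundant member per length of transcript in both genotypes. It measured 1960, 1547, 1236 and 1472 normalised counts in Opn5-null A to D and 967, 1024, 977 and 1065 in wild-type A to D. All 4 Opn5-null libraries stood above all wild-type ones, with A the highest and C the lowest. The mean rose from 1008 ± 45.1 to 1554 ± 301 (SD, n = 4), which is 0.60 ± 0.13 on the log2 scale (SE, limma adjusted p = 0.00870). Its gene (ENSMUSG00000106918) spans positions 31596935 to 31664384 of chromosome 5, plus strand, and shares 261 exonic bases on the same strand with the predicted gene Gm43809, which was not analysed here. The transcript length used for Mrpl33 was 478 bases. Reads of the overlap could have gone to either gene, so the level of Mrpl33 is uncertain.

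Mrps28, for a small-subunit protein, had the largest rise of any member and was the only small-subunit gene called higher. It measured 267, 213, 194 and 301 normalised counts in Opn5-null A to D and 146, 148, 138 and 166 in wild-type A to D. The groups did not overlap, and C was the lowest library of both genotypes. Its mean rose 1.63-fold, from 150 ± 12.0 to 244 ± 49.1 (SD, n = 4), or by 0.68 ± 0.16 on the log2 scale (SE, limma adjusted p = 0.0115). Mrps28 (ENSMUSG00000040269) lies on chromosome 3, positions 8802146 to 8923918, minus strand, with no exonic overlap with another gene in GENCODE M21. Among the Opn5-null libraries, Mrps28 was higher in A and D than in B and C, as the summed leukocyte markers were. The part of those cells in the rise was not tested.

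The remaining calls were smaller or less sure. Mrpl9, whose protein has a bacterial counterpart, was the member with the most reads. Its exons share 157 bases with exons of Oaz3 on the opposite strand, and reads of that overlap could count for either gene. Mrpl9 measured 1487, 1805, 1860 and 1048 normalised counts in Opn5-null A to D and 2132, 2272, 2133 and 2072 in wild-type A to D. Its groups did not overlap, but the Opn5-null libraries spread widely, with D lowest, as it was for the summed corneal markers. Taken singly, the corneal markers Lum, Kera and Slc4a11 were not lowest in Opn5-null D. It fell by 0.51 on the log2 scale (SE 0.17, adjusted p = 0.0491 by limma), and by 0.33 without Opn5-null D, where it was still called. The call ended with edgeR (adjusted p = 0.0583), without Opn5-null A and when any wild-type library was left out, with adjusted p up to 0.109.

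Mrps26 encodes a protein found only in the mitochondrial small subunit. It measured 274, 298, 365 and 293 normalised counts in Opn5-null A to D and 426, 438, 365 and 381 in wild-type A to D. Opn5-null C and wild-type C were almost level. It fell by 0.39 on the log2 scale (SE 0.12, adjusted p = 0.0310 by limma), and the call ended with the block by letter, without Opn5-null A or B and without wild-type A, B or D.

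Mrpl52 and Mrpl54 encode mitochondria-specific proteins of the large subunit. Mrpl52 measured 717, 533, 552 and 658 normalised counts in Opn5-null A to D and 440, 517, 373 and 466 in wild-type A to D. It rose by 0.45 ± 0.13 on the log2 scale (SE, adjusted p = 0.0322 by limma), with Opn5-null B only just above wild-type B. The call ended with both other scalings, with the block by letter and in 5 of the 8 fits that left out 1 library (Opn5-null A or D, wild-type A, C or D), with adjusted p up to 0.0825. Mrpl54 measured 417, 389, 408 and 405 against 330, 342, 260 and 308, with little spread among the Opn5-null libraries. It rose by 0.39 ± 0.10 (SE, adjusted p = 0.0209 by limma), a call that ended with upper-quartile scaling (adjusted p = 0.0709), with the block by letter (adjusted p = 0.0553) and without wild-type D (adjusted p = 0.0540).

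Mrpl39, also mitochondria-specific, measured 894, 770, 787 and 866 normalised counts in Opn5-null A to D and 606, 691, 596 and 727 in wild-type A to D. Its groups stood apart, and it rose by 0.34 ± 0.09 on the log2 scale (SE, adjusted p = 0.0245 by limma). The call ended with quantile normalization (adjusted p = 0.0665), with upper-quartile scaling (adjusted p = 0.0900), with the block by letter and when Opn5-null A, wild-type A or wild-type C was left out. Mrpl30 and Mrpl4, with bacterial counterparts, are outside the rule for members given in full and were chosen after their values were seen. Mrpl30 measured 951, 968, 1029 and 1021 against 814, 936, 718 and 749 and rose by 0.31 ± 0.09 (SE, adjusted p = 0.0350 by limma). Mrpl4, whose protein lines the exit tunnel of the nascent chain, measured 325, 335, 310 and 311 against 283, 260, 256 and 269. It rose by 0.26 ± 0.08 (SE, adjusted p = 0.0421 by limma). Both lost their call with quantile normalization, upper-quartile scaling and the block by letter, and Mrpl30 kept it in 1 and Mrpl4 in 2 of the 8 fits that left out 1 library. The count of members called higher was 4 without Opn5-null A and 3 without wild-type A, C or D in turn. The count called lower was 1 without Opn5-null A and without wild-type A, B or D in turn.

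**Figure D2:**
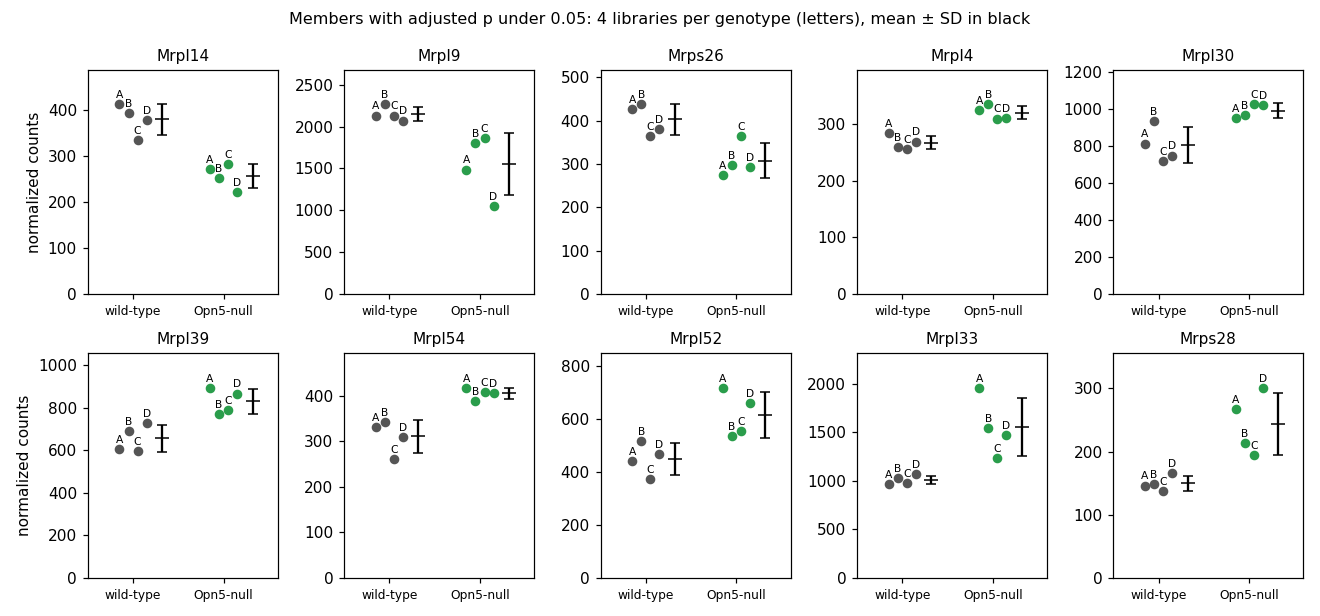
Normalised counts (y axis, from 0) of the 10 called members in each library, lettered A to D, with the mean and SD of each genotype in black. The groups do not overlap in any panel, though for Mrps26 the libraries lettered C nearly touch.

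By limma with the deposited scaling, 0 of the 11 members with a particular role were called, against 32.4% of all genes, and 1, Mrpl11, had an unadjusted p below 0.05. Under the alternatives, Mrpl11 was called by DESeq2 (adjusted p = 0.0338) and by limma without Opn5-null A (adjusted p = 0.0427), and Mrps18b by limma with upper-quartile scaling (adjusted p = 0.0380). By edgeR 0 were called. Mrpl12, the counterpart of the bacterial stalk protein that recruits translation factors, measured 1011, 887, 1230.2 and 1020.3 normalised counts in Opn5-null A to D and 1138, 1139, 924 and 1122 in wild-type A to D. The groups overlapped, and the log2 fold change was -0.06 with a 95% interval from -0.33 to 0.20. Mrpl11, at the base of that stalk, measured 474, 533, 565 and 514 against 446, 452, 452 and 451. Its groups did not overlap, and the difference of 0.21 ± 0.08 on the log2 scale (SE) had a limma adjusted p = 0.0739.

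Mrpl58, a peptidyl-tRNA hydrolase that releases stalled chains, measured 379, 408, 439 and 382 normalised counts in Opn5-null A to D and 346, 404, 362 and 383 in wild-type A to D. Its groups overlapped, with a log2 fold change of 0.10 and an interval from -0.10 to 0.31. Mrpl44, which has a ribonuclease III-like fold, measured 329, 335, 398 and 362 against 459, 374, 375 and 374. Opn5-null C lay among the wild-type libraries, and the log2 fold change was -0.15 with an interval from -0.39 to 0.09.

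In the small subunit, Mrps12, of the decoding centre, measured 243, 268, 241 and 232 normalised counts in Opn5-null A to D and 222, 251, 194 and 222 in wild-type A to D. The groups overlapped, with a log2 fold change of 0.15 and an interval from -0.10 to 0.40. Mrps34, which is needed for a stable small subunit, measured 139.5, 127, 164 and 133 against 159, 147, 158 and 149. It stood at -0.13 with an interval from -0.40 to 0.14, and Opn5-null C was its highest library. Exons of Mrps34 share 763 bases with Nme3 on the same strand and 1309 with Mapk8ip3 on the opposite strand. Reads of these overlaps could have gone to either gene, so the level of Mrps34 is uncertain.

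The bacterial protein S18 has 3 counterparts in mammals. Mrps18a measured 416, 395, 408 and 411 normalised counts in Opn5-null A to D and 376, 369, 342 and 397 in wild-type A to D, with a log2 fold change of 0.14 and an interval from -0.05 to 0.32. Mrps18b measured 378, 388, 328 and 369 against 403, 413, 384 and 420.4, with -0.15 and an interval from -0.34 to 0.04. Mrps18c measured 612, 697, 705 and 568 against 674, 741, 598 and 603, with -0.02 and an interval from -0.26 to 0.22. Its level is uncertain, as its exons share 250 bases on the same strand with the predicted gene Gm43511. The groups of all 3 S18 counterparts overlapped, and so did those of Mrps36. Mrps36 is named as a ribosomal protein but is known as a component of the 2-oxoglutarate dehydrogenase complex. It measured 183, 192, 199 and 207 against 172, 214, 193 and 212, and stood at -0.01 with an interval from -0.27 to 0.24.

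The medians of large- and small-subunit genes lay close together. The median log2 fold change was 0.03 over the 49 large-subunit genes, of which 6 rose and 2 fell (16.3% called). It was -0.01 over the 29 small-subunit genes, of which 1 rose and 1 fell (6.90% called). Over all genes tested the median was -0.02. With quantile normalization the medians were -0.06 and -0.10, and with upper-quartile scaling -0.09 and -0.13, both close to the shift of all genes. Relative to the median of all genes, the large-subunit median was 0.05 with the deposited, 0.08 with the quantile and 0.05 with the upper-quartile scaling. The small-subunit values were 0.01, 0.04 and 0.01. No test was run on these medians, since members are not replicates.

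In the solved structures of the mammalian mitoribosome, the products of Mrps30 and Mrps18a sit in the large subunit despite their names, and that of Mrps36 in neither. Grouping by structure gave 51 large- and 26 small-subunit genes, with medians of 0.03 and -0.02 and the same calls. Mrps30 measured 411, 478, 504 and 493 normalised counts in Opn5-null A to D and 403, 450.3, 409 and 442 in wild-type A to D. Its groups overlapped, and it stood at 0.14 with an interval from -0.07 to 0.35. Of the 48 members with bacterial counterparts, 4 rose and 2 fell, and of the 29 found only in mitochondria, 3 rose and 1 fell. The medians of these groups were 0.02 and 0.01.

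Summed over genes, large-subunit transcripts measured 31090 ± 1200 normalised counts without Opn5 and 30400 ± 1400 in wild-type libraries (SD, n = 4). Small-subunit transcripts summed to 13750 ± 604 and 14070 ± 405. The ratio of these sums, large over small, was 2.33, 2.25, 2.26 and 2.21 in Opn5-null A to D and 2.16, 2.20, 2.11 and 2.17 in wild-type A to D. The ratio was thus higher in every Opn5-null library, by a small margin between Opn5-null D and wild-type B. Without the 10 called members it ran from 1.84 to 1.89 in Opn5-null and from 1.76 to 1.83 in wild-type libraries. On the log2 scale the mean difference from wild-type, large minus small, did overlap, from 0.01 to 0.07 in Opn5-null and from -0.03 to 0.02 in wild-type libraries. As the members were chosen with earlier results known, no p is given for such sums.

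Libraries of one genotype differed among themselves by more than the genotypes did. The median difference of the members from the wild-type mean, on the log2 scale, was -0.04, -0.01, 0.10 and 0.01 in Opn5-null A to D. It was 0.00, 0.07, -0.07 and 0.01 in wild-type A to D. In wild-type C only 13 of 78 members were above the wild-type mean, and in wild-type B 60 were. Over all genes these library medians stayed between -0.02 and 0.01. Opn5-null C, with the highest member median, had the lowest summed leukocyte markers of its genotype (67052). Wild-type B went the other way: it had the highest member median of its genotype and also the highest summed leukocyte markers (39025). A link between the 2 was not tested.

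**Figure D3:**
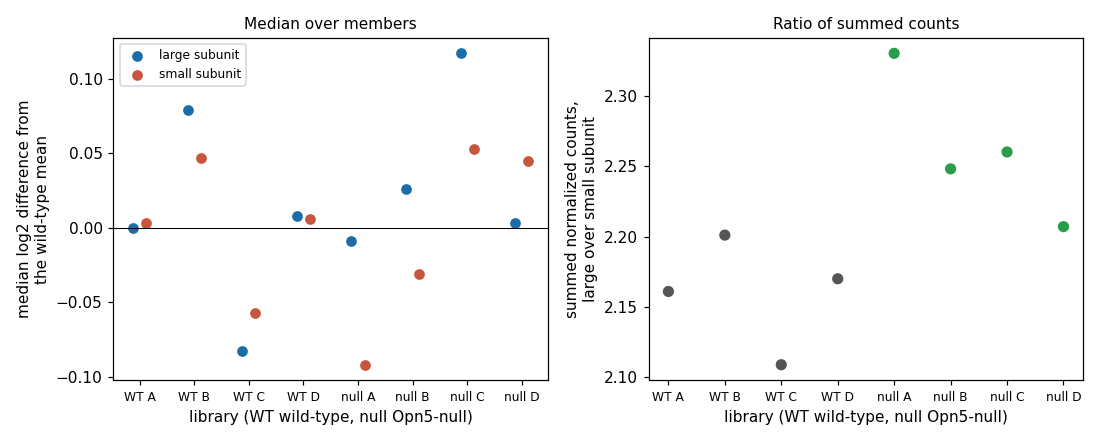
Left, the median log2 difference from the wild-type mean over large-subunit and small-subunit genes in each library. Right, the ratio of summed normalised counts, large over small subunit, from 2.11 in wild-type C to 2.33 in Opn5-null A; neither y axis starts at 0.

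Levels are compared between genes per kilobase of transcript, using the median length of each gene's basic coding transcripts in GENCODE M21. In wild-type corneas the median was 424 normalised counts per kilobase over large-subunit and 336 over small-subunit genes, and in Opn5-null corneas 427 and 319. Mrpl33 was highest, at 2109 per kilobase in wild-type and 3250 in Opn5-null corneas, and Mrpl20, with a bacterial counterpart, followed at 1822 and 1968. In the small subunit Mrps21 and Mrps18c led, at 1366 and 1025 in wild-type corneas. The lowest were Mrpl53 at 14.9, Mrpl57 at 82.1, Mrps26 at 94.1 and Mrps25 at 97.7 per kilobase, all in wild-type corneas. For Mrpl57, Mrps26 and Mrps25 the length used was long, at 2.88, 4.28 and 6.07 kilobases. Before division by length, Mrps25 had a wild-type mean of 593, above the member median of 514. Exons of Mrps25 also share 4590 bases with Nr2c2 on the opposite strand. Of Mrpl53, 695 exonic bases are shared on the same strand with the predicted gene Gm42688. Reads of that overlap could have gone to either gene, so the level of Mrpl53 is uncertain.

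By library, Mrpl20 measured 925, 884, 1036 and 1044 normalised counts in Opn5-null A to D and 913, 956, 834 and 898 in wild-type A to D, with a log2 fold change of 0.11. Mrps21 measured 570, 684, 592 and 633 against 610.5, 604, 629.9 and 595, with 0.02. Neither was called, and both overlapped between genotypes. Among the members lowest per length, Mrpl53 measured 13.2, 4.74, 18.4 and 10.4 against 14.3, 7.35, 8.60 and 11.2, with 0.07. Mrpl57 measured 184, 207, 203 and 204 against 207, 260.1, 219.9 and 259, with -0.24. Its highest Opn5-null library lay just above its lowest wild-type one. It was not called with the deposited scaling but was with quantile normalization (limma adjusted p = 0.0439). Mrps25 measured 503, 472, 588 and 521 against 635, 583.5, 589 and 565, with -0.19, also overlapping and not called over all 8 libraries with the deposited scaling. It was called lower by limma with upper-quartile scaling (adjusted p = 0.0445) and without Opn5-null C (adjusted p = 0.048).

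For scale, cytosolic ribosomal protein genes had a median of 10550 normalised counts per kilobase in wild-type corneas, and mitochondrially encoded messenger and ribosomal RNAs one of 31850.

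The members lie on 17 chromosomes. Chromosome 17, which also carries Opn5, holds 8 of them, and of these only Mrpl14 was called. The other seven had log2 fold changes of -0.19 for Mrps10, -0.15 for Mrps18b, -0.13 for Mrpl18, -0.13 for Mrps34, -0.09 for Mrpl28, -0.06 for Mrpl2 and 0.14 for Mrps18a. No label gives the strain, so an effect of the Opn5 deletion and one of strain differences at linked genes cannot be told apart. Opn5 itself was not analysed here, so the labels alone give the genotypes. Exons of 33 members overlap exons of another gene, on the same strand for 8 and on the opposite strand for 28. Pseudogene transcripts at 90% identity or more over 50% or more of their length were found for 27 members, 49 in all. Among called members these were Mrpl30 and Mrps26, whose levels are uncertain where reads are shared. The same holds for members not called that have copies. Examples are Mrps36, with Mrps36-ps1 at 99.3% identity, and Mrps18b, with Gm13552 at 99.8%, each over the full length of the copy. The copies were not analysed here.

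A coding gene starts within 1000 bases upstream on the opposite strand for 18 members, a head-to-head arrangement in which a pair can share a promoter. Of 17 such neighbours tested, 5 were higher and 2 lower, while 2 of their 17 partner members were called, against 32.4% of all genes. Mrpl30 and Mitd1, which start 66 bases apart, were the only pair with both called. Mitd1, for a protein of cytokinesis, rose by 0.42 ± 0.12 on the log2 scale (SE, adjusted p = 0.0283 by limma), with groups that overlapped. Ppp1r10, a regulator of protein phosphatase 1, starts 45 bases from Mrps18b and was higher by 1.06 ± 0.19 (SE, adjusted p = 0.00353 by limma), while Mrps18b stood at -0.15. Fau, for a cytosolic ribosomal protein fused to a ubiquitin-like domain, starts 59 bases from Mrpl49 and was higher by 0.27 ± 0.08 (SE, adjusted p = 0.0302 by limma), while Mrpl49 stood at -0.22.

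RefSeq promoter windows on GRCm38.p6, from 250 bases before to 50 after a gene's start, were at hand for 69 of the 78 members. They were searched on both strands for the NRF1 motif, CCGGAAGT (GABP and other ETS factors) and AAGATGGCG (YY1). The NRF1 motif was in the windows of 13 members (18.8%), against 10.2% of 11553 genes of the deposited table with a window. The ETS letters were in 12 (17.4%, against 8.18%) and the YY1 letters in 8 (11.6%, against 3.16%). At least 1 of them was in 31 members (44.9%, against 19.9%), in 22 of 43 large-subunit and 9 of 26 small-subunit genes. It was in all 7 called members with a window and in 24 of 62 members not called. Those 7 hold both directions: Mrpl14, Mrpl9 and Mrps26 fell, and Mrpl30, Mrpl33, Mrpl39 and Mrpl52 rose. Of them only Mrpl14 and Mrpl33 kept their call under every alternative, and a link between motif and call was not tested. A match is a description of letters and shows no binding.

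The windows of Mrpl14 and Mrpl33 are printed because their calls held under every alternative. That of Mrpl30 is printed because Mitd1 starts 66 bases away on the opposite strand, within the window. Whether the 2 genes share a promoter was not tested. The printed windows are on the plus strand, read 5′ to 3′, with the motif in capitals. That of Mrpl14 (chr17:45686099-45686398) has an NRF1 match that begins 4 bases after the start, that of Mrpl33 (chr5:31613701-31614000) an ETS match that begins at position -3, counted from a RefSeq start that lies inside the longer GENCODE gene, and that of Mrpl30 (chr1:37890227-37890526) an NRF1 match that begins at position -83. No window was at hand for Mrps28.
Mrpl14: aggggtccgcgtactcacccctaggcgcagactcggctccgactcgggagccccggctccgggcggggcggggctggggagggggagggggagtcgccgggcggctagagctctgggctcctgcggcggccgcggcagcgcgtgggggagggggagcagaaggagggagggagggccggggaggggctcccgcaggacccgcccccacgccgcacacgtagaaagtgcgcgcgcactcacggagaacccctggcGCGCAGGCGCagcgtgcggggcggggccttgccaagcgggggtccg
Mrpl33: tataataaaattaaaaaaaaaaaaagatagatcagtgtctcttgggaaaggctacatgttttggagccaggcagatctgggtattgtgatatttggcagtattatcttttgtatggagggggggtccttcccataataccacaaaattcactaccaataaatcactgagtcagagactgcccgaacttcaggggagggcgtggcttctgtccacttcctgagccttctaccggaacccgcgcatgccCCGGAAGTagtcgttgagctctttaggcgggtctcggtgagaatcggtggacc
Mrpl30: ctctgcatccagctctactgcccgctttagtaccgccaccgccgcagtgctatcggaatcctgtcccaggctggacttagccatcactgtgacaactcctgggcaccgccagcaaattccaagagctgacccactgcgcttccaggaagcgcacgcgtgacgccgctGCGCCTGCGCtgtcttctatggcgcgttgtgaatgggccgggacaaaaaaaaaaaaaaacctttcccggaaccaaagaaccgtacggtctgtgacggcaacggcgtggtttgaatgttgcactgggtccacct

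Other genes of mitochondrial translation were read from lists of the pathway around the members, against the same 32.4% of all genes called. The remaining proteins of the mitoribosome, Dap3, Ptcd3, Aurkaip1, Chchd1 and Gadd45gip1, were not called by limma over all 8 libraries. Of them 2 had an unadjusted p below 0.05, DESeq2 called 2 higher and limma without Opn5-null A called 1 higher. Aurkaip1 stood at 0.22 ± 0.08 and Chchd1 at 0.28 ± 0.10 on the log2 scale (SE), both with non-overlapping groups. Of 27 genes for assembly of the mitoribosome and modification of its RNA, 2 rose and 2 fell. With quantile normalization 1 was higher and 5 lower, with upper-quartile scaling 0 were higher and 4 lower, and without wild-type A or without wild-type D 0 were called. Trub2, a pseudouridine synthase gene, rose by 0.53 ± 0.15 on the log2 scale (SE, adjusted p = 0.0301 by limma), and Mrm1, an rRNA methyltransferase gene, fell by 0.46 (SE 0.11, adjusted p = 0.0158 by limma). Of 16 genes for translation factors and related proteins, 0 rose and 2 fell by limma (1 and 3 at an unadjusted p below 0.05, and 1 and 2 by DESeq2). Guf1, for a translation elongation factor, fell by 0.35 and Letm1, for a protein of the inner membrane, by 0.26. With quantile normalization and with upper-quartile scaling 4 of these genes were lower, and without Opn5-null B, wild-type A or wild-type D 0 were called.

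Mitochondrial aminoacyl-tRNA synthesis genes, whose products charge the tRNAs that the mitoribosome uses, had 5 of 22 lower and 0 higher by limma (22.7% called). At an unadjusted p below 0.05, 6 were lower and 1 higher, and edgeR called 4 lower and 0 higher. Their median log2 fold change was -0.13. Mars2, for methionyl-tRNA synthetase, measured 345, 343, 336 and 296 normalised counts in Opn5-null A to D and 528, 548, 502 and 618 in wild-type A to D. It fell by 0.73 on the log2 scale (SE 0.10, adjusted p = 0.000886 by limma), more than any member. Iars2, for isoleucyl-tRNA synthetase, fell by 0.42 (adjusted p = 0.00396 by limma) and Nars2, for asparaginyl-tRNA synthetase, by 0.42 (adjusted p = 0.0129 by limma). The count lower was 9 after quantile normalization and after upper-quartile scaling. It was 3 without Opn5-null A, without Opn5-null D and when any 1 wild-type library was left out.

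Of 13 genes for mitochondrial DNA maintenance and transcription, 0 were called by limma or edgeR, 1 each way had an unadjusted p below 0.05, and DESeq2 called 1 each way. With quantile normalization and with upper-quartile scaling 1 was lower. Among 10 nuclear regulators of mitochondrial genes, 1 rose and 0 fell by limma, with log2 fold changes from -0.92 to 0.85. At an unadjusted p below 0.05, 1 was higher and 1 lower. With quantile normalization, with upper-quartile scaling and without Opn5-null B, 1 was called higher and 1 lower. The gene that rose was Gabpb1, for a subunit of GABP. It measured 1565, 1090, 898 and 1221 normalised counts in Opn5-null A to D and 651, 703, 643 and 597 in wild-type A to D. The rise was 0.85 ± 0.16 on the log2 scale (SE, limma adjusted p = 0.00431). Gabpa, for the DNA-binding subunit, stood at 0.14 and Nrf1 at 0.04, neither called. The 11 mitochondrially encoded messenger and ribosomal RNAs had a median of 0.21, all above 0, and did not overlap between genotypes for 4. By limma 1 was higher, mt-Nd2, for a subunit of respiratory complex I, at 0.52 ± 0.13 (SE, adjusted p = 0.0154 by limma). DESeq2 called 3 of them higher and limma without Opn5-null B 2, while 0 were called with quantile normalization, with upper-quartile scaling or without wild-type D.

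Cytosolic ribosomal protein genes, the counterpart set outside the mitochondrion, had 5 of 90 higher and 4 lower (10.0% called), with a median of 0.02. With quantile normalization 4 were higher and 7 lower with a median of -0.18, and with upper-quartile scaling 4 and 5 with a median of -0.095, while the median was -0.01 without Opn5-null C and -0.02 without wild-type C. Their median size of the log2 fold change was 0.06, against 0.10 for the members, and 80 of 90 had a 95% interval within -0.5 to 0.5. Some cytosolic genes moved much further than any member, Rps3a3 by 8.76 among them, but Rps3a3 is a near copy of Rps3a1 and its level is uncertain.

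**Figure D4:**
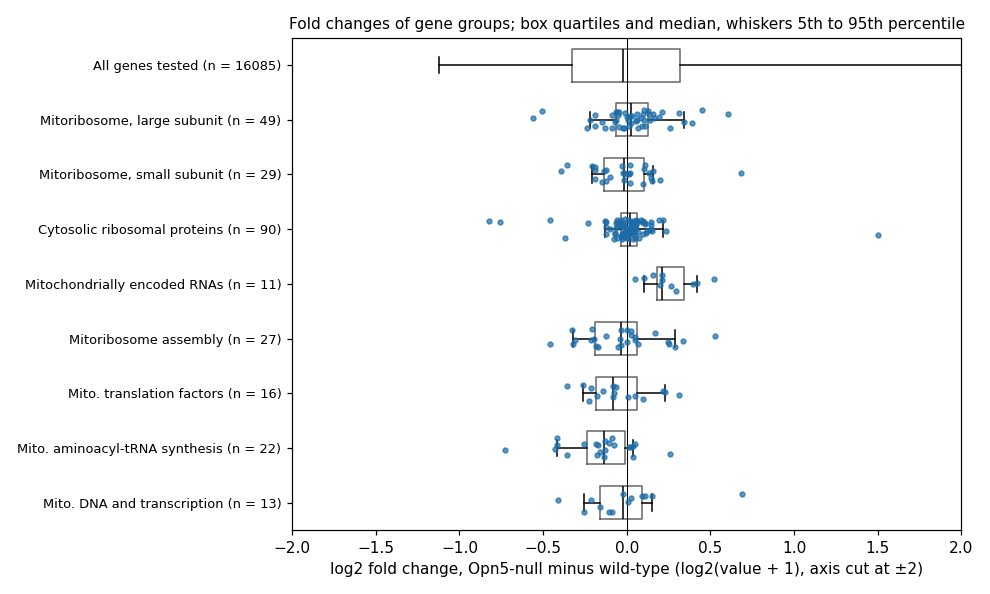
Log2 fold changes (x axis) of mitochondrial ribosomal protein genes and related groups beside all 16085 genes tested; boxes show quartiles and median, whiskers the 5th to 95th percentile, points single genes. The mitoribosomal boxes are centred near 0 and are much narrower than that of all genes, and values beyond ±2, such as that of Rps3a3, are not drawn.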

How the data were processed

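The table held 1 normalised signal value per gene and library for 8 libraries, on a scale of counts over a size factor. Dividing each of the deposited signal columns by its smallest nonzero value gave whole reads for 100% of values within 0.001. RSEM 1.3.1 is named, per the submitters' processing notes. Total RNA was freed of ribosomal and globin transcripts and made into libraries with a stranded kit, per the labels' protocols. No source used here names the aligner, build or strand setting. Log2 fold changes and p-values were also deposited and came from their own comparison, whose tool the file headers do not name. DESeq2 on recovered reads called the same number of genes, 6232 of 16082, so the 2 are not separate evidence.

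The main test was limma 3.58.1 (R 4.3.3, intensity trend, robust) on log2(value + 1) for genes that reached 1 in at least 4 libraries, with Benjamini-Hochberg adjustment over all genes, at 0.05. The step was tested on simulated data. Alternatives were other scalings, filters and a pseudocount of 0.1, each library left out, a block by letter, subunits by structure, and edgeR 4.0.16 and DESeq2 1.42.0 on recovered reads. Counts of libraries of a genotype differed by more than sampling noise (chi-square per gene 10.4 to 199).

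Members and lists were chosen with earlier results of these data known. Given in full were, per subunit, the 4 called members with the largest rise and fall, the 2 highest and lowest per length, and 11 members with a particular role, and from other lists up to 3 called per direction. Lengths, overlaps and positions came from GENCODE M21, promoters from RefSeq, and pseudogene matches from BLAST+ 2.17.0.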

Additional observations from a re-analysis of the deposited data

Results flagged for a closer look

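Among 26 members checked for a library far from the other three of its genotype, 3 of 52 groups had one, and chance gives about 1 in 20. Mrpl12 measured 924 normalised counts in wild-type C and 1122 to 1139 in the other wild-type libraries. Mrpl44 measured 459 in wild-type A and 374 to 375 in the others. Mrpl11 measured 446 in wild-type A and 451 to 452 in the others, a gap that is small beside its difference between genotypes.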

How the results depend on the processing

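Mrpl14, Mrpl33 and Mrps28 kept their direction and call in all 17 alternatives. Members called higher and lower, 7 and 3, were 3 and 6 after quantile normalization and 2 and 7 with upper-quartile scaling. The median log2 fold change of large-subunit genes was -0.055 and -0.089 under these scalings, and that of small-subunit genes -0.096 and -0.128, against a shift of all genes to -0.13. With a replicate block by letter 2 were higher and 2 lower. No label says that the letters pair samples, so they were not taken as pairs. Deviations of samples of the same letter had correlations of -0.156, -0.128, 0.138 and 0.131 for A to D. With 4 libraries per genotype and values of both signs, these cannot decide whether samples were paired. Leaving out 1 library gave 3 to 6 higher and 1 to 4 lower. Uncalled values changed sign with upper-quartile scaling for Mrpl20 (-0.006), Mrpl58 (-0.011), Mrpl53 (-0.037) and Mrps21 (-0.095), and with quantile normalization for Mrpl53 (-0.009) and Mrps21 (-0.056). Leaving out 1 library gave ranges across 0 for Mrpl12 (-0.15 to 0.008), Mrpl53 (-0.181 to 0.405), Mrps18c (-0.064 to 0.042), Mrps21 (-0.029 to 0.059) and Mrps36 (-0.079 to 0.026). The causes were not tested. TMM scaling, the pseudocount and the filters left the counts at 7 and 3.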
